A study of Mus musculus with 8 samples.

Results

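The genes described here belong to the amino acid response, the arm of the integrated stress response that is run by the transcription factor ATF4, together with the cytosolic aminoacyl-tRNA synthetases. The list is defined by gene name and function and includes 9 transcription factors and effectors, 6 enzymes of amino acid synthesis, 5 amino acid transporters and 20 synthetase genes, 40 genes in all. All 40 were found on the array, by 67 probes, among 32053 features (named genes or unnamed transcripts).

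When uncharged tRNA, unfolded protein or other stress activates one of the eIF2 alpha kinases, phosphorylated eIF2 alpha slows general translation while the Atf4 mRNA is translated more. ATF4 then binds composite C/EBP-ATF response elements near its target genes, which include Ddit3 (CHOP), Asns, amino acid transporters and many synthetases. Aminoacyl-tRNA synthetases join each amino acid to its tRNA, and several of the cytosolic ones sit in one large complex held by scaffold proteins.

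The study used mouse mammary tumour lines driven by the polyoma middle T oncogene (PyMT), on the FVB background, and every culture received 50 µM camptothecin, a topoisomerase I poison, for 36 h. In the first experiment the line named WTA, wild type for Mtdh, carried either the LKO1 lentiviral vector with a short hairpin against Snd1 (3 arrays, "knockdown") or the empty LKO1 vector (3 arrays, "vector"), both under puromycin selection. In the second, the line named KO2, which lacks Mtdh, was given back mouse Mtdh from an LmPGK-ires2-GFP construct, either wild type (1 array) or with the W391D substitution (1 array), and the GFP-positive cells were sorted. MTDH and SND1 bind each other, and the series asks how losing SND1, or the MTDH form carrying W391D, changes expression under this drug. Each contrast rests on 1 line and 1 hairpin, the vector carries no control hairpin, untreated cells were not analysed here, and the labels do not say that replicates were separate cultures, so p-values measure only how far these arrays spread, and that spread may be technical.

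Each array compared Cy5-labelled sample RNA with a Cy3-labelled mouse reference RNA pooled from 11 cell lines, with no dye swap. A level is therefore the log2 ratio of sample to reference, and a difference between groups is a log2 fold change. The median Cy5 signal ran from 158 to 363 against a local background of 61 to 72, and 78.0% to 88.5% of probes were well above background. The first knockdown and first vector array shared a slide and the other 4 arrays shared another, while each rescue array had a slide of its own. Snd1 was lower in the knockdown by 1.86-fold (log2 fold change -0.90 ± 0.06 SE, adjusted p = 1.04e-05), and Mtdh was not called (-0.12, adjusted p = 0.118). All 11 epithelial keratin and junction markers were well above background on all 8 arrays, as were all 10 fibroblast markers. The summed Cy5 signal of the fibroblast genes was 33082 to 37621 in the knockdown and 14200 to 16051 with vector, and that of the epithelial genes 421709 to 443214 and 614761 to 633940. Of the 11 epithelial genes 8 fell and 1 rose, and of the fibroblast genes 7 of 10 rose and 0 fell. Over all features tested, 23.7% rose and 21.1% fell (adjusted p under 0.05). Of 6 adipocyte genes 5 rose and 0 fell, with summed signals of 10238 to 11124 and 5984 to 6742. Leukocyte genes (6 tested, 2 higher, 1 lower, 2611 to 2774 and 2386 to 2890) and endothelial genes (5 tested, 2 higher, 2 lower, 2260 to 2586 and 2113 to 2368) lay close together in both groups, and Tek was not well above background on any array. These shifts accompany every knockdown value below, and their part in the results was not tested.

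The sequences that ATF4 is known to read could be looked up for 31 of the 40 genes, in RefSeq promoter windows of 300 bases (250 before and 50 after the transcription start, build GRCm38.p6, first transcribed base +1); Cth, Slc7a5, Cars, Hars, Lars, Nars, Rars, Vars and Wars had no entry. The core of the C/EBP-ATF response element was searched as TGATGNAA on both strands (TTNCATCA on the other), and 12 of the 31 windows held it (38.7%), against 1219 of all 27025 gene windows (4.51%). By role, it was in 4 of 9 effectors, 1 of 5 synthesis enzymes, 2 of 4 transporters and 5 of 13 synthetases. A match is a description of these letters and not evidence of binding, and no match says nothing about elements outside the window. The stretches around the matches that lie upstream of the start are given below, 5′ to 3′ on the gene's own strand, with the 8 matching bases in capitals, because the genes that share them differed widely in the knockdown.
Chac1, chr2:119351023-119351082, plus strand, match at -193 to -186: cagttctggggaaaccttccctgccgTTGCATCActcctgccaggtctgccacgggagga
Atf3, chr1:191183410-191183469, minus strand, match at -110 to -103: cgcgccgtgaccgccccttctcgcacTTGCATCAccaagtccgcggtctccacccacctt
Nupr1, chr7:126625547-126625606, minus strand, match at -110 to -103: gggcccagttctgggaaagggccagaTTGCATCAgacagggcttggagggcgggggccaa
Asns, chr6:7693210-7693258, minus strand, match at -23 to -16: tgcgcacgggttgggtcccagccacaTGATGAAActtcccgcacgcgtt
Slc7a11, chr3:50443627-50443705, minus strand, matches at -66 to -59 and -47 to -40: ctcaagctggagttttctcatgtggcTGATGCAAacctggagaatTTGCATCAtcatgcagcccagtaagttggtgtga
Aars, chr8:111033704-111033763, plus strand, match at -112 to -105: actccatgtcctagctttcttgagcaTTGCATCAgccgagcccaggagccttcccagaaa
Gars, chr6:55037945-55038000, plus strand, match at -30 to -23: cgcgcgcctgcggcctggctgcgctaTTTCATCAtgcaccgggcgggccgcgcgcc
Tars, chr15:11399659-11399699, minus strand, match at -15 to -8: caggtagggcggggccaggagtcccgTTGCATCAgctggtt

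Other genes held the motif at or past the start, Slc1a4 at -4 to 4, Yars at 4 to 11, Iars at 8 to 15 and Trib3 at 15 to 22, and Aars held a further copy at 10 to 17. The cyclic AMP response element TGACGTCA, an 8-base palindrome bound by other ATF and CREB proteins, was in 1 of the 31 windows, that of Ppp1r15a at -12 to -5, against 549 of 27025 (2.03%). Its surroundings are printed for comparison with the elements above, since Ppp1r15a was among the genes that moved most.
Ppp1r15a, chr7:45526269-45526306, minus strand: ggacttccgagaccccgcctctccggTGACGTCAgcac

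With limma and Benjamini-Hochberg adjustment over all 25673 features tested, 13 of the 40 genes rose in the Snd1 knockdown, 10 fell and 17 were not called, a call being an adjusted p below 0.05. Over all features 44.8% were called, 23.7% higher and 21.1% lower, and the counts are to be read against those shares. With the dye ratios only centred on the median, in place of loess, the split turned to 9 higher and 13 lower, and 43.8% of all called features were then higher in place of 52.8%. The median log2 fold change was 0.07 over the 40 genes and 0.02 over all features. The effectors stood apart by their median, a difference between roles that was not tested. Of the 9 effectors 7 rose and 0 fell (median 0.96, all 9 estimates above 0), of the 6 synthesis enzymes 0 rose (1, Asns, at an unadjusted p under 0.05) and 1 fell (median 0.04), of the 5 transporters 2 rose and 2 fell (median 0.13), and of the 20 synthetases 4 rose and 7 fell (median -0.07), or 2 and 10 with median centring. The genes that rose at least 2-fold were 5, Chac1, Ddit3, Slc3a2, Atf3 and Ppp1r15a, where 2.27% of all features did, and none fell that far (1.52% of all features). All 23 called genes had the same sign on both slides. The slides hold the same arrays that gave the calls, so this was no separate check. In 17 genes all 3 knockdown values lay above all 3 vector values (28.7% of features with all 6 values), in 10 they lay below (24.5%), and in 13 the groups overlapped.

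**Figure D1:**
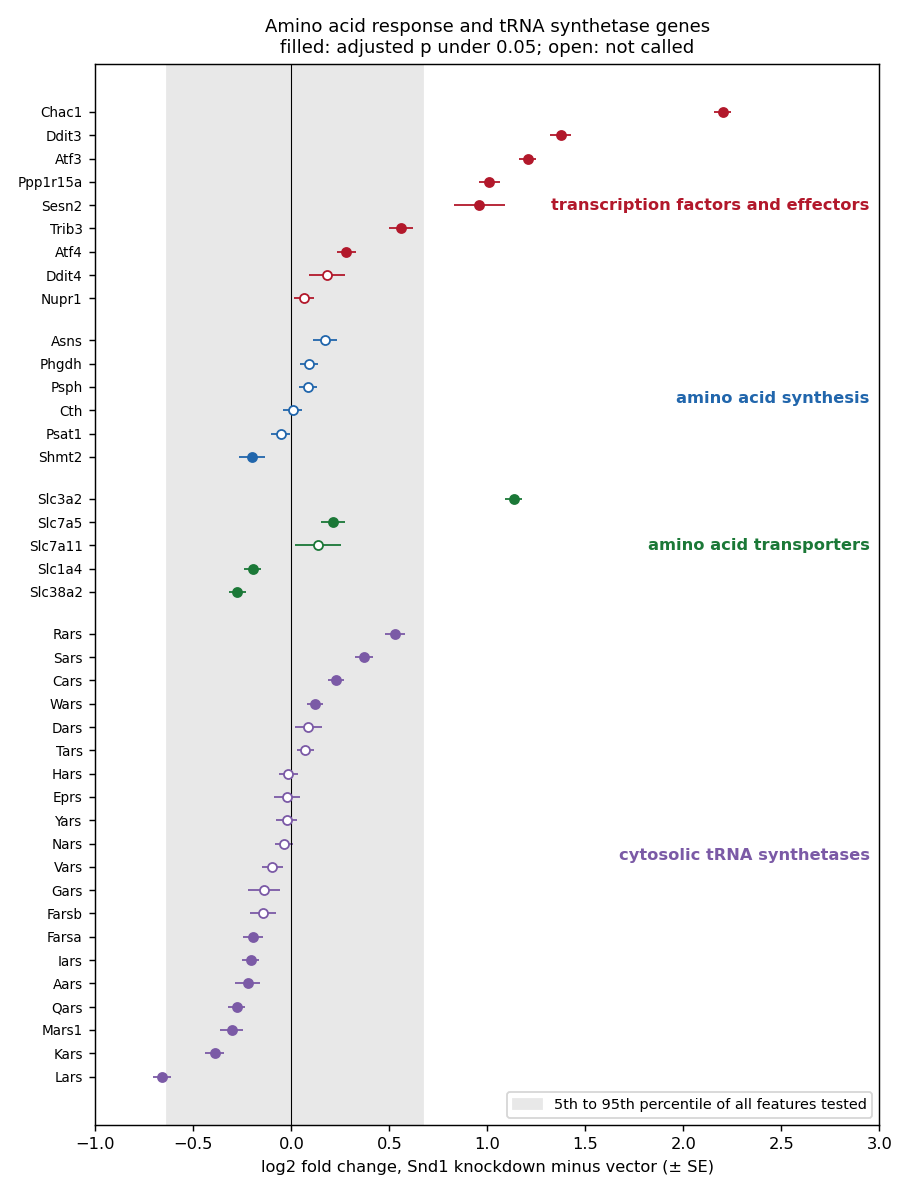
Log2 fold change in the Snd1 knockdown against vector for the 40 genes, grouped by role. Points are limma estimates from 3 and 3 arrays, bars are ± SE, filled points have an adjusted p under 0.05, and the grey band spans the 5th to 95th percentile of all features tested. In all, 6 points lie to the right of the band, 5 effectors and Slc3a2, and Lars lies just outside its left edge.

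The effectors held 4 of the 5 genes that rose at least 2-fold. Chac1, which encodes an enzyme that degrades glutathione and is a strong target of ATF4 and CHOP, had log2 ratios of 1.82, 1.85 and 1.91 in the knockdown and -0.37, -0.33 and -0.32 with vector. The groups were far apart, and Chac1 was above the reference RNA in the knockdown and below it with vector. It rose 4.59-fold (log2 fold change 2.20 ± 0.04 SE, adjusted p = 2.76e-08) and ranked 114 from the top of the 25673 features.

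Ddit3, which encodes CHOP, the transcription factor that couples prolonged stress to cell death, read 0.74, 0.68 and 0.77 in the knockdown and -0.58, -0.72 and -0.64 with vector. It also crossed the reference level, with a rise of 2.59-fold (1.37 ± 0.05, adjusted p = 5.22e-07). Atf3, an early stress-induced repressor and partner of ATF4, read 1.57, 1.65 and 1.58 against 0.42, 0.39 and 0.38. Both groups were above the reference and 2.31-fold apart (1.21 ± 0.04, adjusted p = 3.93e-07). Ppp1r15a (GADD34), the stress-induced subunit that brings phosphatase to eIF2 alpha and so closes the loop, read 1.88, 1.77 and 1.72 against 0.83, 0.77 and 0.74. That is a rise of 2.01-fold (1.01 ± 0.05, adjusted p = 2.67e-06).

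Sesn2, a leucine-binding inhibitor of mTORC1 signalling that ATF4 and p53 can both raise, read 0.67, 0.18 and 0.15 in the knockdown and -0.55, -0.67 and -0.65 with vector. The first knockdown array stood above the others, and every knockdown value was above every vector value. The rise was 1.94-fold (0.96 ± 0.13, adjusted p = 4.62e-04), made up of 1.23 on slide 1 and 0.82 on slide 2. Trib3, a pseudokinase that restrains ATF4 and CHOP, read 0.41, 0.27 and 0.33 against -0.30, -0.12 and -0.25. It rose 1.47-fold (0.56 ± 0.06, adjusted p = 1.44e-04), and its other probe gave 0.46.

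The mRNA of Atf4 itself, whose product is controlled mainly through translation, had a smaller fold change than any of these 6 targets. It read -0.50, -0.58 and -0.62 in the knockdown and -0.86, -0.87 and -0.81 with vector, below the reference in both. The groups did not overlap and differed 1.21-fold (0.28 ± 0.05, adjusted p = 0.00185). The call ended where the dye ratios were only centred on the median instead of loess-fitted (0.17, adjusted p = 0.109) and in the Cy5 channel alone (0.29, adjusted p = 0.0694).

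The remaining pair of effectors did not pass. Ddit4 (REDD1), an mTORC1 inhibitor induced by hypoxia and stress, read -0.58, -0.79 and -0.70 in the knockdown and -1.06, -0.72 and -0.85 with vector. The groups overlapped, the difference was 0.48 on slide 1 and 0.04 on slide 2, and the fit gave 0.18 ± 0.09 (adjusted p = 0.153). Nupr1, a small chromatin-associated stress protein, read -0.59, -0.67 and -0.52 against -0.68, -0.68 and -0.62, a difference of 0.06 ± 0.05 (adjusted p = 0.36). Chac1, Atf3 and Nupr1 carry the same 8 bases TTGCATCA upstream, and they differed by 2.20, 1.21 and 0.06.

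**Figure D2:**
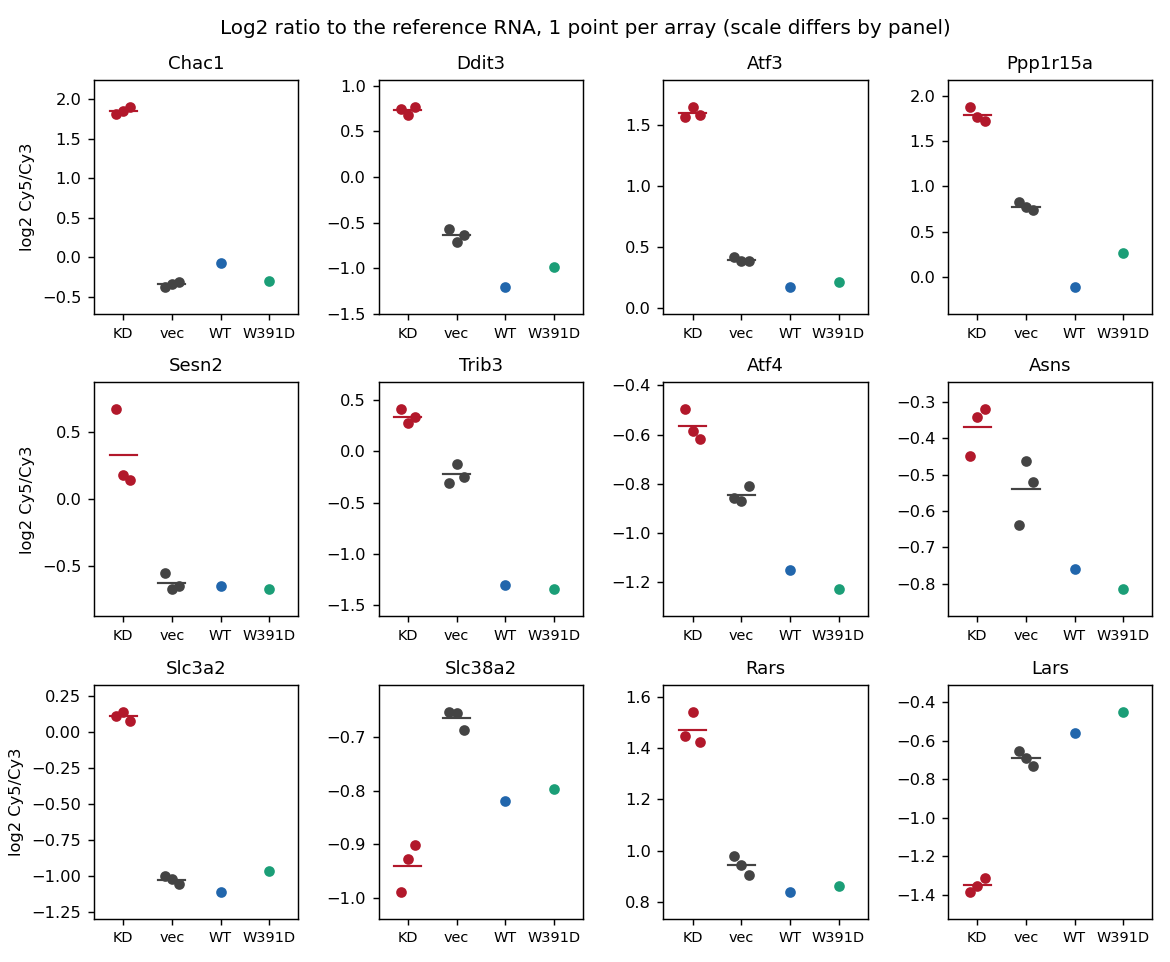
Log2 ratio of sample to reference RNA for 12 of the genes, with 1 point per array in the knockdown (KD), vector (vec), wild-type rescue (WT) and W391D rescue groups. Lines are means of 3 arrays and the scale differs between panels. The 12 genes were listed by hand. None is among the 13 of the 40 genes whose groups overlapped, so KD and vec points are separate in every panel by that choice. The gap is least for Asns, where the nearest values are -0.45 and -0.46.

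The enzymes that make non-essential amino acids, which ATF4 is known to raise when amino acids are short, gave small differences, of which 1 was called. Asns, asparagine synthetase and a classic ATF4 target, read -0.45, -0.34 and -0.32 in the knockdown and -0.64, -0.46 and -0.52 with vector. The groups came close without overlapping, and the difference of 0.17 ± 0.06 just missed the threshold (adjusted p = 0.0512). Asns passed under 12 of 20 alternative settings, which are not separate checks. It has 1 probe, so the 2 changes of probe rule left its estimate at 0.17 (adjusted p = 0.0487 and 0.0499). The series table repeated Feature Extraction's log ratio. When same-numbered arrays were paired as blocks it passed (replicate block, adjusted p = 0.0138), as it did with Feature Extraction's own log ratio (0.21, adjusted p = 0.0076), without knockdown replicate 1 (adjusted p = 0.029) and without vector replicate 2 (adjusted p = 0.0405).

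The serine pathway moved as little. Phgdh, its first enzyme, read -0.03, -0.07 and 0.01 against -0.14, -0.10 and -0.12 (0.09 ± 0.04, adjusted p = 0.142). Psat1, the transaminase that follows it, gave -0.05 (adjusted p = 0.424), and Psph, the final phosphatase, gave 0.08 (adjusted p = 0.179). Shmt2, which passes serine carbon into mitochondrial folate, read -0.15, -0.36 and -0.37 in the knockdown and -0.04, -0.11 and -0.12 with vector. It was the only synthesis enzyme called, and it fell (-0.20 ± 0.07, adjusted p = 0.0417). The call held without knockdown replicate 1 but was lost without knockdown replicate 2 or 3 (adjusted p = 0.132 and 0.136) and without vector replicate 1, 2 or 3 (0.104, 0.0829 and 0.0722). Cth, which makes cysteine from cystathionine, lay far below the reference in both groups, between -2.24 and -2.21 in the knockdown and between -2.29 and -2.17 with vector, and did not pass (0.01, adjusted p = 0.938). The 95% intervals of the 5 uncalled enzymes ran from -0.17 to 0.31, so rises of the size seen in Ddit3 or Chac1 lay outside them.

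Among the transporters, Slc3a2 stood apart. It encodes CD98hc, the heavy chain that carries the light chains LAT1 (Slc7a5) and xCT (Slc7a11) to the membrane, and it read 0.11, 0.14 and 0.07 in the knockdown and -1.001, -1.02 and -1.06 with vector. It rose 2.19-fold (1.13 ± 0.04, adjusted p = 4.91e-07). Its second, dimmer probe also rose, by 0.59 (adjusted p = 0.00106), so the size depended on the probe.

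The light chains gave smaller values than the heavy chain. Slc7a5, which imports leucine and other large neutral amino acids, read -1.78, -1.88 and -1.67 in the knockdown and -1.97, -2.02 and -1.99 with vector. It rose 1.16-fold (0.21 ± 0.06, adjusted p = 0.0191), a call lost without knockdown replicate 3 (adjusted p = 0.0563), vector replicate 2 (0.0638) or vector replicate 3 (0.0515) and under 5 ways of normalizing (0.0543 to 0.402). Slc7a11, which exchanges cystine for glutamate, read -1.05, -1.43 and -1.46 against -1.31, -1.57 and -1.47. The groups overlapped and the difference was 0.13 ± 0.12 (adjusted p = 0.403). Its brightest probe was well above background on only 2 of 3 knockdown and 1 of 3 vector arrays, the single exception among the 40 genes, and its other probes gave 0.07 and 0.18, neither called. With Feature Extraction's own log ratio its difference was 0.69, also not called (adjusted p = 0.347), and the gene had a value in 16 of the 20 alternatives. The probe that gave 0.07 was well above background on every array.

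The neutral amino acid transporters Slc38a2 and Slc1a4 fell. The first, SNAT2, which carries glutamine and alanine and is itself induced by amino acid starvation, read -0.99, -0.93 and -0.90 in the knockdown and -0.65, -0.65 and -0.69 with vector (-0.28 ± 0.04, adjusted p = 0.00114). The second, ASCT1, an exchanger of alanine, serine and cysteine, read -1.69, -1.72 and -1.66 against -1.53, -1.45 and -1.49 (-0.20 ± 0.04, adjusted p = 0.00664). Neither was called by its second probe (-0.11, adjusted p = 0.222, and -0.02, adjusted p = 0.761), and Slc1a4 also missed with log ratios scaled between arrays (-0.17, adjusted p = 0.169).

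The cytosolic synthetases changed in both directions. Their largest change, that of Lars, was smaller in size than those of Chac1, Ddit3, Atf3, Ppp1r15a and Sesn2. It was larger than those of Trib3, Atf4, Ddit4 and Nupr1. None of the synthetases changed 2-fold, and the range was -0.66 (Lars) to 0.53 (Rars). The 2 ends were the leucine and arginine enzymes, which are members of the same multi-enzyme complex. Lars read -1.39, -1.35 and -1.32 in the knockdown and -0.65, -0.69 and -0.73 with vector, and fell 1.58-fold (-0.66 ± 0.04, adjusted p = 8.98e-06). Its other probes fell as well, by 0.50 and 0.61 on the log2 scale. Rars read 1.45, 1.54 and 1.42 against 0.98, 0.94 and 0.90, and rose 1.44-fold (0.53 ± 0.05, adjusted p = 5.3e-05).

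The other synthetases that rose were those for serine, cysteine and tryptophan. Sars read 0.34, 0.27 and 0.27 in the knockdown and -0.11, -0.04 and -0.08 with vector (0.37 ± 0.04, adjusted p = 2.32e-04). Cars read 0.18, 0.18 and 0.13 against -0.10, -0.03 and -0.05 (0.23 ± 0.04, adjusted p = 0.00293), a call that ended with median centring (0.12, adjusted p = 0.186), in the Cy5 channel alone (0.21, adjusted p = 0.0687) and on the third of its probes (0.17, adjusted p = 0.0634). Wars passed narrowly (0.12 ± 0.04, adjusted p = 0.0444), its other probe gave -0.05, and leaving out any single one of the 6 arrays ended the call (adjusted p = 0.0654 to 0.144).

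Besides Lars, 6 synthetases fell. Kars, for lysine, read -0.08, -0.17 and -0.21 in the knockdown and 0.27, 0.21 and 0.23 with vector (-0.39 ± 0.05, adjusted p = 3.05e-04), moving from above to below the reference. Mars1, for methionine, read -0.26, -0.40 and -0.46 against -0.04, -0.07 and -0.10 (-0.30 ± 0.06, adjusted p = 0.00314). Qars, for glutamine, read 0.55, 0.50 and 0.46 against 0.79, 0.78 and 0.78 (-0.28 ± 0.04, adjusted p = 9.95e-04). For these 3 the groups were apart, and both probes of Mars1 and of Qars fell.

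The smallest falls were those of the enzymes for alanine, isoleucine and phenylalanine. Aars gave -0.22 ± 0.06 (adjusted p = 0.0216), a call lost without knockdown replicate 1 (adjusted p = 0.0602), vector replicate 2 (0.077) or vector replicate 3 (0.0761), with Feature Extraction's own log ratio (0.0671) and with scaling between arrays (0.145). Iars gave -0.21 ± 0.04 (adjusted p = 0.0057), and its second probe missed (-0.13, adjusted p = 0.105). Farsa, the catalytic subunit of the phenylalanine enzyme, gave -0.20 ± 0.05 (adjusted p = 0.0146) and fell on all 3 probes, while its partner subunit Farsb gave -0.14 ± 0.07 and did not pass (adjusted p = 0.124). In the Cy5 channel alone the calls on Mars1, Aars, Iars and Farsa all ended (adjusted p = 0.0784, 0.494, 0.0843 and 0.389), though the estimates there were -0.37, -0.24, -0.31 and -0.19.

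The 9 synthetases not called were Dars, Tars, Hars, Eprs, Yars, Nars, Vars, Gars and Farsb, with estimates from -0.14 to 0.09 and 95% intervals between -0.33 and 0.24. Gars, for glycine, passed with the replicate block (-0.14, adjusted p = 0.0466). With median centring Farsb, Gars and Vars passed (-0.29, -0.31 and -0.25, adjusted p = 0.0248, 0.0264 and 0.041). Without knockdown replicate 1, 4 of the 9 passed: Farsb (-0.22, adjusted p = 0.00944), Gars (-0.23, adjusted p = 0.0176), Vars (-0.14, adjusted p = 0.0344) and Dars (0.16, adjusted p = 0.0345). The 5 synthetases whose windows held the response element were Aars, Gars, Iars, Tars and Yars. By their brightest probes, 2 of these fell and 3 were not called, with values from -0.22 to 0.07. The second probe of Tars was called higher (0.14, adjusted p = 0.0355). Those of Aars and Iars were not called (-0.20 and -0.13, adjusted p = 0.083 and 0.105).

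**Figure D3:**
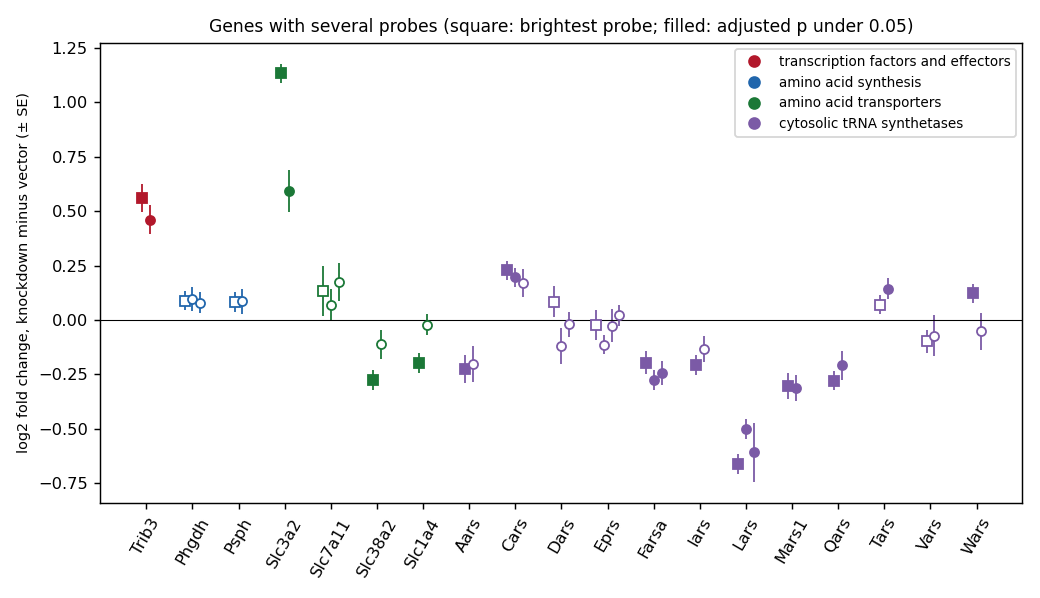
Log2 fold change (knockdown minus vector, ± SE) of every probe for the 19 genes with more than 1 probe; squares are the brightest probe used in the main comparison, circles the others, and filled symbols have an adjusted p under 0.05. Slc3a2 and Lars keep their direction on all probes but differ in size, and the probes of Wars, Dars and Eprs lie on both sides of 0.

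Among the 19 genes with more than 1 probe, 12 had the same call on all of them (2 higher, 4 lower and 6 not called), 7 had a mixture of called and uncalled probes, and 0 had probes called in opposite directions. In 3 of them probes differed in sign, namely Dars, Eprs and Wars.

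Other parts of the pathway were read from lists of genes outside the 40, of which up to 4 called genes with the smallest p are named. The counts of these lists, here and in the next paragraphs, stand beside 23.7% of all features higher and 21.1% lower. Of 22 other ATF4 targets and partners tested, 11 rose and 4 fell (median 0.32), and 5 rose at least 2-fold, where 2.27% of all features did. Vegfa, the vascular growth factor, rose by 1.48 ± 0.05 (adjusted p = 2.69e-07) on its brightest probe, by 0.93 over the mean of its probes and by 0.44 on its least changed probe (adjusted p = 8.91e-05). Gdf15, a secreted stress cytokine, rose by 2.13 ± 0.08 (adjusted p = 4.09e-07) and Jdp2, a bZIP repressor, by 1.49 ± 0.06 (adjusted p = 7.39e-07). Bcat1, the cytosolic branched-chain transaminase, gave 2.28 ± 0.08 (adjusted p = 3.64e-07) on its brightest probe and 0.14 (adjusted p = 0.0717) on another. With every probe required to pass, 7 of these genes rose, and the 4 that fell became 2 without vector replicate 2 or 3.

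All 9 genes of the eIF2 alpha kinase and phosphatase group were called, 4 higher and 5 lower (median -0.21), where 44.8% of all features were called. Eif2ak2, the kinase PKR that senses double-stranded RNA, changed by -0.997 (adjusted p = 5.34e-06), and Gcn1, the activator of the amino acid sensing kinase GCN2, fell by 0.34 (adjusted p = 8.63e-04). Nck1, an adaptor linked to eIF2 alpha dephosphorylation, fell by 0.46 (adjusted p = 4.77e-05). Ppp1r15b, the constitutive counterpart of Ppp1r15a, rose by 0.44 (adjusted p = 2.75e-04). With median centring 2 of the group rose instead of 4.

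Of the 5 subunits of eIF2B, the exchange factor that phosphorylated eIF2 alpha blocks, 4 were on the array. Eif2b2 (0.32, adjusted p = 6.68e-04) and Eif2b4 (0.18, adjusted p = 0.0315) rose and Eif2b5 (-0.17, adjusted p = 0.0206) fell. The call on Eif2b4 was lost without knockdown replicate 1 or 2 or vector replicate 2 or 3 (adjusted p = 0.0591, 0.052, 0.0954 and 0.0771), and that on Eif2b5 without knockdown replicate 2 or 3 or vector replicate 2 (0.0511, 0.0733 and 0.0754). Eif2b4 also missed with median centring (0.07, adjusted p = 0.545), scaling between arrays (0.132), the mean of its probes (0.0938) and every probe required to pass (0.273). In the Cy5 channel alone the calls on Eif2b2, Eif2b4 and Eif2b5 ended (adjusted p = 0.103, 0.344 and 0.125).

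The mitochondrial synthetases that have genes of their own, which charge tRNA inside mitochondria, were lower for 10 of 17 genes and higher for 3 (median -0.16). Over all features 21.1% were lower and 23.7% higher. Rars2 fell by 0.56 (adjusted p = 1.86e-05), Sars2 by 0.45 (adjusted p = 1.46e-04) and Nars2 by 0.37 (adjusted p = 2.09e-04) on the log2 scale. Rars2 and Sars2 went down while their cytosolic counterparts Rars and Sars went up. Leaving out any array but knockdown replicate 1 lowered the count of 10 to 7 or 8, and a second probe of Nars2 missed (-0.03, adjusted p = 0.784); with Feature Extraction's own log ratio the brightest gave -0.76.

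Of the 3 scaffold proteins of the synthetase complex, Aimp1 fell (-0.29, adjusted p = 9.11e-04) and Aimp2 and Eef1e1 were not called. Of 6 further serine and one-carbon genes only Gldc, of the glycine cleavage system, was called, and it fell (-0.43, adjusted p = 7.08e-04); 2 fell without knockdown replicate 3. Of 8 mTORC1 and nutrient sensor genes, Tsc2 (-0.52, adjusted p = 3.23e-05) and Sesn3 (-0.30, adjusted p = 0.00404) fell and Rragd rose (0.37, adjusted p = 0.00139); 2 rose without knockdown replicate 1 or vector replicate 2, and 3 with the replicate block.

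The second experiment compared the W391D form of MTDH with the wild-type form in the Mtdh-null line. There is 1 array of each, so the values have no replicate check and no test. By their brightest probes, none of the 40 genes reached a 1.5-fold difference in either direction, where 0.0814% of 27018 features were past it upward and 0.0851% downward. The range was -0.27 (Nupr1) to 0.38 (Ppp1r15a, 1.30-fold). Mtdh itself was 0.52 lower on the array labelled W391D.

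Among the genes that rose at least 2-fold in the knockdown, Chac1 alone was lower with W391D. Ppp1r15a read -0.11 with the wild-type form and 0.27 with W391D, Ddit3 read -1.21 and -0.99, and Slc3a2 read -1.11 and -0.97. Chac1 went the other way, from -0.07 to -0.30, and Atf3 was nearly level at 0.18 and 0.22, as was Sesn2 at -0.65 and -0.67. Of the synthetases 17 of 20 were higher with W391D, by at most 0.18 (Kars), and the 3 that were lower went down to -0.10 (Cars). Over all features 13448 of 27018 were higher. With 1 array each, a shift of the synthetases was not tested. Of the 3 Lars probes, 1 gave -0.77, a 1.71-fold difference and so past 1.5-fold, while the others gave 0.11 and 0.09.

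**Figure D4:**
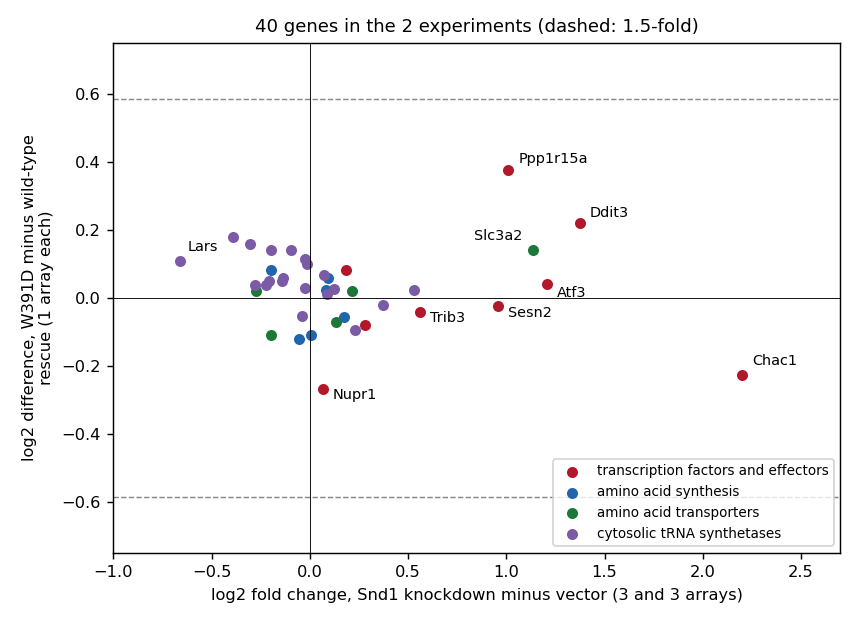
Log2 fold change in the Snd1 knockdown (horizontal, 3 and 3 arrays) against the log2 difference between the W391D and wild-type rescue arrays (vertical, 1 array each) for the 40 genes, coloured by role. Dashed lines mark 1.5-fold; all 40 points lie between them, and the genes farthest to the right, from Sesn2 to Chac1, lie on both sides of 0 on the vertical axis.

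Across the 8 arrays the rescue lines can also be set beside the vector arrays, although line, genotype, construct and slide all differ and cannot be told apart. Both rescue values lay above all 3 vector values in 13 of the 40 genes (34.6% of features) and below in 21 (27.7%), and 6 overlapped. Of the 9 effectors, 7 were below. The gap was widest for Trib3, which read -1.30 and -1.34 in the rescue lines. Chac1 was the only effector above, at -0.07 and -0.30. Fibroblast gene signal was 30880 and 33936 and epithelial signal 804912 and 866743 on the rescue arrays.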

How the data were processed

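RNA of 8 samples was read on 2-colour Agilent mouse arrays, and per the file headers spots were quantified with Agilent Feature Extraction 11.0.1.1 (the submitters' processing notes give 9.5.3.1). The deposited files give median intensity and background per spot and a log10 ratio of Cy5 over Cy3; the deposited series table holds log2 ratios, which matched that log ratio (r at least 0.988 per array). Median intensities were corrected by normexp (offset 50) and loess-normalized within arrays with limma 3.58.1 in R 4.3.3, leaving out control spots (1639) and outlier spots (77 to 142 per array). No spot was saturated. Probes in several spots were averaged, and the brightest probe stood for a gene. Of 41174 probes, 27668 were named through RefSeq accessions (18883 symbols, table of GRCm38.p6). Features well above background on at least 3 of 6 arrays were tested with lmFit and eBayes, without a block.

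The 40 genes, the other lists and the promoter motifs were chosen with earlier results of these data known. All 40 are named; from each other list, up to 4 called genes with the smallest p are. A single gene of that choice is not reported here. Knockdown and vector arrays of the same number deviated together (r = 0.60, 0.33 and 0.34). Those of different number on the second slide did so too (r = 0.39 and 0.25), and those on different slides did not (-0.50 to -0.38). The replicate block is given where it changes a call. Alternatives covered background, normalization, probe rule, filter, slide, eBayes settings and leaving out each array (20 for the knockdown, 10 for the rescue). The number of arrays limits the precision. On simulated data the fit recovered 99% of log2 effects of size 1 and 77% of those of size 0.5. Smaller effects were not simulated. The simulated noise was independent between arrays, so it does not bear on arrays that deviate together.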

Additional observations from a re-analysis of the deposited data

How the results depend on the processing

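Of the 23 called genes, 12 kept their call under all 20 alternatives (Chac1, Ddit3, Atf3, Ppp1r15a, Sesn2, Trib3, Slc3a2, Rars, Sars, Lars, Kars and Qars), 11 lost it somewhere, and of 17 uncalled genes 12 were never called and 5 gained a call. The 13 higher calls became 9 to 14. The 10 lower calls became 13 with median centring, where 9 were higher, and within the second slide, 5 in the Cy5 channel alone and 6 with every probe on its own; leaving out 1 array gave 11 to 14 higher and 8 to 12 lower. With the replicate block there were 14 higher and 11 lower, and no call among the 40 changed other than those on Asns and Gars. Signs turned only for genes not called, apart from Wars: in the Cy5 channel alone Psat1 (0.0011), Cth (-0.047) and Yars (0.0096); with the Feature Extraction log ratio or the series table Cth (-0.020); on every probe Dars (-0.019), Eprs (0.021), Wars (-0.052) and Mtdh (0.048); on the mean of probes Dars (-0.018); with median centring Nupr1 (-0.023), Psph (-0.0030), Cth (-0.076), Dars (-0.062) and Wars (-0.018); within the second slide Eprs (0.055); and with 1 array left out at a time Eprs (-0.065 to 0.050), Hars (-0.053 to 0.0097), Cth (-0.026 to 0.035) and Yars (-0.064 to 0.021). The causes were not tested. The rescue counts per gene stayed at 0 under all 10 alternatives, the probe setting counting a gene only where all its probes passed. By the brightest probes, signal over background limited Slc7a11 alone among the 40.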
